A study of Mus musculus with 6 samples.

Results

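The semaphorin, ephrin, Slit and netrin guidance genes of the mouse were compared on Affymetrix expression arrays between neural stem cells positive for Spot14 GFP and neural stem cells negative for it. Members were taken by gene symbol, as the semaphorins of classes 3 to 7, plexins, neuropilins, ephrins, Eph receptors, Slits, Robos, numbered netrins, Unc5 genes and Dcc. The symbol pattern found 71 of the 18193 genes that had a probe set naming a single gene, with 156 probe sets among them. Of these 71 genes, 68 belong to the guidance families, 35 as ligands and 33 as receptors. The remaining 3 carry matching symbols only: Unc50, which is not a netrin receptor, Unc5cl, and the antisense transcript Plxna4os1. Ephb2 was not analysed here. Each gene was read from its brightest probe set, by the mean of the 6 arrays.

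Both groups are total RNA of mouse neural stem cells with a Spot14 reporter read as green fluorescent protein (GFP); Spot14 is the product of the thyroid hormone responsive gene Thrsp. GFP positive cells gave 3 arrays and GFP negative cells gave 3, named as biological replicates in the labels. The sources used here do not give strain, age, brain region, the reporter construct, culture conditions or how positive cells were parted from negative ones. The comparison asks which guidance cues and receptors differ with the reporter signal.

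Guidance molecules steer axons and migrating cells. Semaphorins act mainly through plexins, the secreted class 3 members with neuropilins as co-receptors. Ephrins are held on the cell surface and bind Eph receptor tyrosine kinases on neighbouring cells, Slits are secreted ligands of Robo receptors, and netrins attract or repel through DCC and UNC5 receptors. In the adult brain, Slits are known for repelling neuroblasts that leave the subventricular zone, and ephrins and Eph receptors for effects on dividing cells of that niche.

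Values are log2 signals, and a probe set near background reads about log2 2 to 3. Thrsp itself read 14.21 ± 0.10 in GFP positive and 13.56 ± 0.15 in GFP negative cells (SD, n = 3 each), higher on each GFP positive array without passing the threshold (difference 0.65, limma adjusted p = 0.0893). The general neural stem cell genes Sox2, Nes and Vim read log2 11.01 or more on every array. Of 4 stem cell genes tested as a list 0 passed in limma, with 3 positive and 1 negative (−0.49). At an unadjusted limma p under 0.05, 1 of the 4 was higher and 0 lower, where 9.92% of all genes tested were higher. The 3 positive genes were higher in GFP positive cells without overlap, or 75%, where 13.8% of all genes tested were. Of the GFP negative arrays replicate 3 lay far from the others: on the second principal component of all tested genes, which held 36.3% of the variance, it scored 36.8, against −31.9 and −33.8 for GFP negative replicates 1 and 2. In GFP negative replicate 2, control transcripts showed more 3′ than 5′ signal than on any other array, by log2 2.33 for Gapdh and 2.65 for actin, where the next highest arrays had 1.65 and 2.03. The small number of arrays, 3 in each group, limits the precision.

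Of the 71 genes, 36 were bright enough to be tested, which required log2 4 or more on at least 3 of 6 arrays; 34 of them passed that level on all 6 arrays, and none passed it in a single group only. Of the 36, 4 fell in GFP positive cells and 0 rose at a limma adjusted p under 0.05. The genes that fell were the netrin receptor Dcc (4.19-fold lower), the ligand Slit2 (3.23-fold), the semaphorin Sema5a (2.97-fold) and the semaphorin Sema3a (2.30-fold). By the same test 11.1% of the guidance genes were lower, where of all 10531 genes tested 2.11% were lower, 2.35% higher and 4.46% called in either direction. At an unadjusted p under 0.05, limma counted 9 of the 36 guidance genes lower and 2 higher, where 8.28% of all genes tested were lower and 9.92% higher. All 4 calls were lost without GFP positive replicate 1, without GFP positive replicate 3 or without GFP negative replicate 2, and also with the replicate number as a block or with no filter, while their directions stayed the same; most calls among all genes were lost in these single-array fits too. In RNA from many cells, fewer cells that express a gene and less of its RNA per cell cannot be told apart.

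Differences below the threshold ran both ways. Of the 36 tested genes 18 were positive and 18 negative, and their median difference was log2 −0.047, beside 0.0049 over all genes tested. The sign of the guidance median turned under other scalings of the arrays, with 37 guidance genes tested. It was 0.023 with quantile normalization, beside 0.011 over all genes tested, and 0.081 with a common median, beside 0.073. Among 19 tested ligands 3 fell, and their median difference was −0.24. Among 16 tested receptors 1 fell, and their median difference was 0.13. By other counts the 2 roles were alike. At an unadjusted limma p under 0.05, 5 ligands and 4 receptors were lower and 1 of each was higher. Of all genes tested 8.28% were lower and 9.92% higher by that count. With GFP positive lower, the groups did not overlap for 5 ligands (26.3%) and 5 receptors (31.25%). With GFP positive higher, they did not overlap for 2 of each. The groups did not overlap for 10 of the 36 genes with GFP positive lower, or 27.8%, where 11.5% of all genes tested did so. They did not overlap for 4 with GFP positive higher, or 11.1%, where 13.8% of all genes did. An exact 2-sided permutation test of any of these genes gives p = 0.1, the smallest that 3 against 3 arrays allow.

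**Figure D1:**
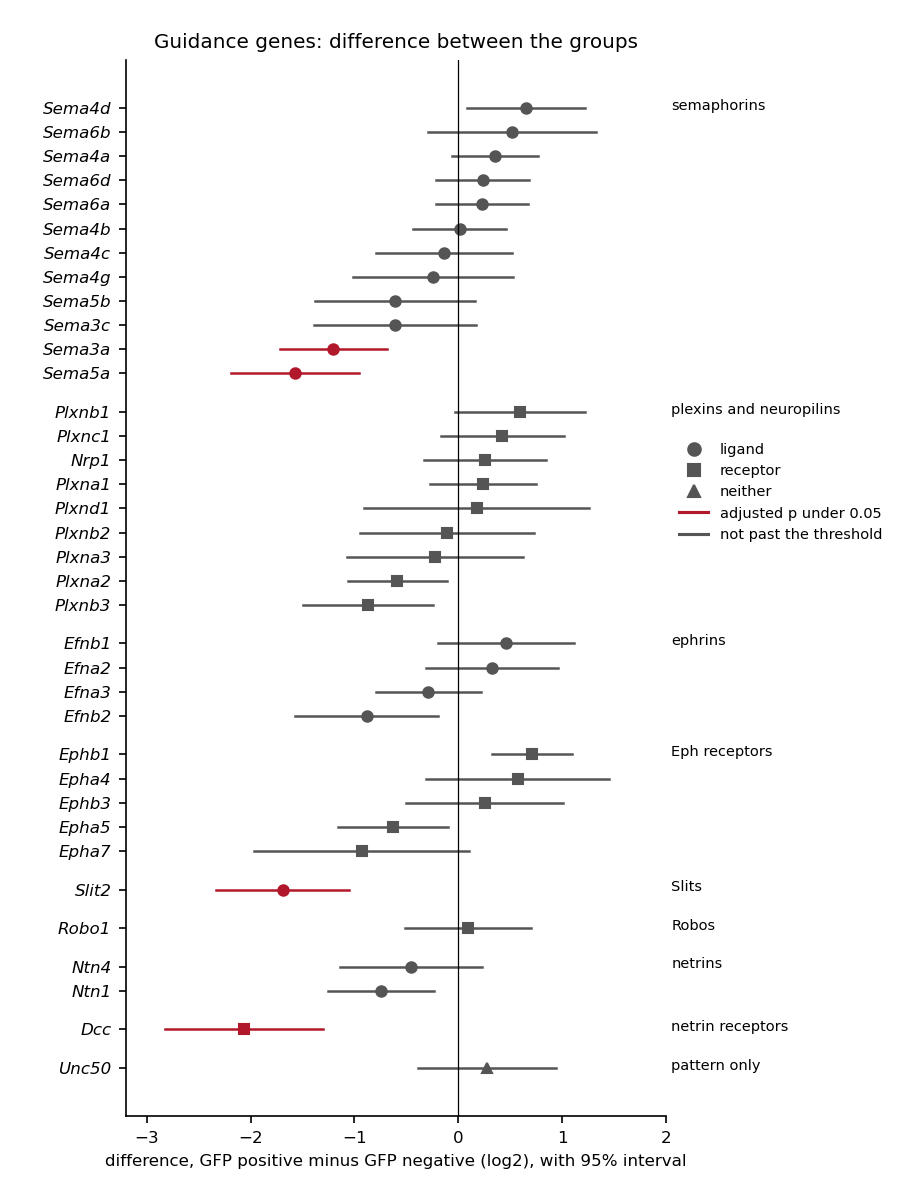
Difference between GFP positive and GFP negative cells (x axis, log2) for the 36 tested genes, by family, with 95% limma intervals. Circles are ligands, squares receptors, the triangle Unc50; the 4 genes in red, Sema3a, Sema5a, Slit2 and Dcc, passed the threshold, and all lie left of 0.

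Secreted class 3 semaphorins were represented by Sema3a and Sema3c. Sema3a, a ligand of neuropilin-1 and plexin-A complexes known for collapsing growth cones, read 6.17, 6.47 and 6.45 on the GFP positive arrays, against 7.23, 7.86 and 7.61 on the GFP negative arrays. All 3 GFP positive arrays lay below all 3 GFP negative arrays. GFP positive cells averaged 6.36 ± 0.17 and GFP negative cells 7.57 ± 0.32 (SD, n = 3 each), and the difference was −1.20 (SE 0.22, 95% interval −1.71 to −0.69, limma adjusted p = 0.0304). Sema3c, another neuropilin ligand, read 4.18, 4.42 and 4.21 in GFP positive and 5.58, 4.21 and 4.85 in GFP negative cells. Its groups overlapped, and the difference of −0.61 (95% interval −1.39 to 0.17) did not pass (limma adjusted p = 0.409); it was −0.26 with GFP negative replicate 1 left out and −0.95 with GFP negative replicate 2 left out. The other 5 class 3 genes on the array were not tested, and of these Sema3e alone reached log2 4, on a single array.

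Of the transmembrane semaphorins Sema5a fell. It carries thrombospondin repeats and is known as a ligand of plexin-B3 and of plexin-A1 and plexin-A3. It read 5.18, 5.90 and 5.20 on the GFP positive arrays, against 6.83, 7.33 and 6.83 on the GFP negative arrays, with no overlap. The difference was −1.57 (SE 0.26, 95% interval −2.19 to −0.96, limma adjusted p = 0.0239). Its relative Sema5b, outside the rule for named genes, differed by −0.61 with a 95% interval of −1.38 to 0.16.

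The remaining tested semaphorins are membrane ligands, and none passed in limma; Sema4d alone was under 0.05 in its unadjusted p. Sema4d, the ligand of plexin-B1, read 6.73, 7.11 and 6.92 in GFP positive and 6.47, 6.52 and 5.81 in GFP negative cells. The groups did not overlap, and the difference of 0.65 (95% interval 0.08 to 1.22) missed the threshold (limma adjusted p = 0.209) and was 0.42 without GFP negative replicate 3. Sema6d, which binds plexin-A1, read 11.42, 11.54 and 11.54 in GFP positive and 11.44, 11.38 and 10.97 in GFP negative cells. Here the groups overlapped, as they did for Sema6a, a ligand of plexin-A2 and plexin-A4. Sema6a read 9.46, 9.76 and 9.45 in GFP positive and 9.33, 9.51 and 9.14 in GFP negative cells. The 95% intervals of their differences ran from −0.21 to 0.68 for Sema6d and from −0.21 to 0.67 for Sema6a. Without GFP negative replicate 3 the differences were 0.092 for Sema6d and 0.14 for Sema6a, against 0.24 and 0.23 with all arrays, and Sema6a was at 0.13 without GFP positive replicate 2. Sema4b differed by 0.01 (95% interval −0.43 to 0.46), at 9.85, 9.96 and 10.00 in GFP positive and 10.15, 9.98 and 9.65 in GFP negative cells. The 4 other tested class 4 and 6 genes differed by −0.24 to 0.52.

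Plexins and neuropilins, the receptors of these ligands, gave 9 tested genes, of which 0 passed the limma threshold and 2 were lower at an unadjusted p under 0.05. Nrp1, the co-receptor of Sema3a, read 10.05, 9.92 and 10.22 in GFP positive and 10.27, 9.73 and 9.41 in GFP negative cells. The groups overlapped, and the difference of 0.26 had a 95% interval of −0.33 to 0.84 (limma adjusted p = 0.668), whereas the interval for Sema3a lay wholly below 0. The Nrp1 difference was 0.060 with GFP negative replicate 3 left out and 0.49 with GFP negative replicate 1 left out. Plxna1, a signalling partner of Nrp1, read 9.65, 9.42 and 9.41 in GFP positive and 9.07, 9.07 and 9.64 in GFP negative cells. That is a difference of 0.24 with a 95% interval of −0.27 to 0.75, and GFP negative replicate 3 lay among the GFP positive arrays; it was 0.43 without that array and 0.14 without GFP negative replicate 1 or 2.

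The B plexins, which bind class 4 semaphorins and, for plexin-B3, Sema5a, differed among themselves. Plxnb3 read 6.34, 6.25 and 6.63 in GFP positive and 6.81, 7.25 and 7.76 in GFP negative cells, without overlap. Its difference of −0.87 (95% interval −1.49 to −0.24) did not pass (limma adjusted p = 0.134), so Sema5a fell and its receptor gene pointed the same way without a call. Plxnb1, the receptor of Sema4d, read 9.62, 9.65 and 9.85 in GFP positive and 8.55, 9.30 and 9.49 in GFP negative cells. It was 0.59 higher in GFP positive cells, again without overlap and without passing (95% interval −0.03 to 1.22, limma adjusted p = 0.305), and 0.31 higher without GFP negative replicate 1. Plxnb2 read 10.18, 10.20 and 9.94 in GFP positive and 9.59, 10.01 and 11.04 in GFP negative cells. Its difference of −0.11 was carried by GFP negative replicate 3 and was 0.30 without that array. The 4 other tested plexins, Plxna2, Plxna3, Plxnc1 and Plxnd1, named to complete the family, differed by −0.59, −0.23, 0.42 and 0.18, and their limma adjusted p ran from 0.174 to 0.897.

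**Figure D2:**
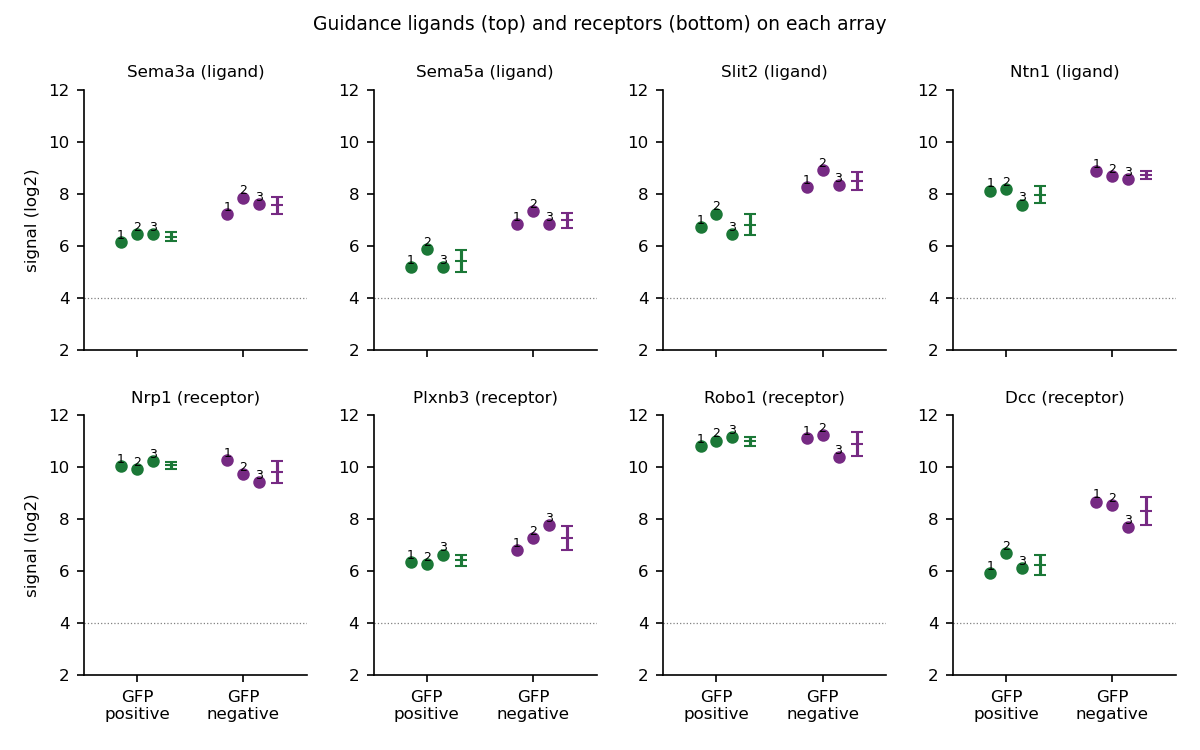
Log2 signal (y axis) of 4 ligands (top row) and 4 receptors (bottom row) on each array, numbered by replicate, with group means and SD (n = 3) at the right of the points; GFP positive is green and left, GFP negative purple and right, and the dotted line is the log2 4 level of the filter. Sema3a, Sema5a, Slit2 and Dcc separate the groups by over 1 log2 unit on average, while Nrp1 and Robo1 overlap.

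Slit2, a secreted repellent, was the only tested Slit. It read 6.73, 7.25 and 6.46 on the GFP positive arrays, against 8.27, 8.91 and 8.34 on the GFP negative arrays. The highest GFP positive array thus lay about 1 log2 unit below the lowest GFP negative array. The difference was −1.69 (SE 0.27, 95% interval −2.33 to −1.05, limma adjusted p = 0.0203). Robo1, a receptor of Slit2 and the only tested Robo, read 10.81, 11.02 and 11.14 in GFP positive and 11.11, 11.21 and 10.37 in GFP negative cells. The Robo1 groups overlapped, and the difference of 0.09 had a 95% interval of −0.51 to 0.70 (limma adjusted p = 0.905) and turned to −0.17 without GFP negative replicate 3. Slit1 lay at 2.86 ± 0.05 and 2.83 ± 0.04, and Robo2 at 3.19 ± 0.35 and 3.06 ± 0.32, in GFP positive and GFP negative cells (SD, n = 3 each). Slit1, Slit3, Robo2 and Robo3 stayed under log2 4 on every array, and Robo4 read 3.23 to 4.21; none of these was tested.

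Dcc, the receptor through which netrin-1 attracts axons, had the largest difference of the 36 genes. It read 5.91, 6.67 and 6.11 on the GFP positive arrays, against 8.67, 8.55 and 7.67 on the GFP negative arrays. The groups did not overlap, and GFP negative replicate 3 was the lowest of its group. GFP positive cells averaged 6.23 ± 0.40 and GFP negative cells 8.30 ± 0.54 (SD, n = 3 each), and the difference was −2.07 (SE 0.33, 95% interval −2.83 to −1.30, limma adjusted p = 0.0191). Dcc was the only netrin receptor tested. Unc5a, Unc5b and Unc5d, which mediate repulsion, were under log2 3 on every array, and Unc5c reached log2 4 on a single array.

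The netrin ligands pointed the same way as Dcc without passing. Ntn1, the ligand of Dcc, read 8.13, 8.20 and 7.59 in GFP positive and 8.88, 8.69 and 8.59 in GFP negative cells. The groups did not overlap, and the difference was −0.74 (95% interval −1.26 to −0.23, limma adjusted p = 0.118). Ntn4, a netrin of basement membranes, read 7.35, 7.78 and 7.74 in GFP positive and 7.50, 8.54 and 8.20 in GFP negative cells. Its groups overlapped, and the difference was −0.46 (95% interval −1.14 to 0.23), at −0.23 with GFP negative replicate 2 left out and −0.75 with GFP negative replicate 1 left out. Ntn3 and Ntn5 lay near background. Unc50, which matched by symbol alone, differed by 0.27 (limma adjusted p = 0.694).

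Ephrins gave 4 tested genes and Eph receptors 5, and 0 of these 9 passed the limma threshold; at an unadjusted p under 0.05, 1 ephrin was lower, 1 Eph receptor was higher and 1 was lower. Ephb1, a receptor of B-type ephrins, came nearest. It read 7.58, 7.65 and 7.57 on the GFP positive arrays, against 7.03, 6.80 and 6.84 on the GFP negative arrays, with a narrow spread in both groups. The difference was 0.71 (SE 0.16, 95% interval 0.32 to 1.09, limma adjusted p = 0.0607). It passed in 4 of the 15 alternative fits, among them the fit without GFP negative replicate 3 (0.68, limma adjusted p = 0.0383). In the fits where it did not pass, its limma adjusted p rose to 0.278 without GFP positive replicate 2. It was 0.253 with the replicate block and 0.146 with trend and robust settings. The receptor Ephb3 read 4.90, 4.56 and 4.37 in GFP positive and 3.77, 4.31 and 4.98 in GFP negative cells, with overlap; its difference of 0.26 ran from −0.037 without GFP negative replicate 1 to 0.57 without GFP negative replicate 3.

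Among the ephrins, Efnb2, a transmembrane ligand of EphB receptors and of EphA4, read 7.22, 6.64 and 6.16 in GFP positive and 7.65, 7.75 and 7.28 in GFP negative cells. The groups nearly touched without overlap, and the difference of −0.88 (95% interval −1.57 to −0.20) did not pass (limma adjusted p = 0.159). Efnb1, also transmembrane, read 6.32, 6.33 and 6.21 in GFP positive and 6.34, 5.26 and 5.87 in GFP negative cells. Efna2, anchored by a lipid tail, read 9.19, 9.02 and 8.54 in GFP positive and 8.42, 8.29 and 9.05 in GFP negative cells. Both overlapped, with differences of 0.46 for Efnb1 and 0.33 for Efna2. Without GFP negative replicate 2 both were 0.18; without another array Efnb1 reached 0.72 (GFP negative replicate 1) and Efna2 ran from 0.19 (GFP positive replicate 1) to 0.51 (GFP positive replicate 3) and 0.56 (GFP negative replicate 3). Efna3, the remaining tested ephrin, differed by −0.29. Efna5 and Efnb3 stayed under log2 4 on every array.

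The EphA receptors differed in direction. Epha5, a receptor of A-type ephrins, read 7.92, 8.36 and 8.42 in GFP positive and 8.76, 9.17 and 8.66 in GFP negative cells, a difference of −0.63 without overlap (95% interval −1.15 to −0.10, limma adjusted p = 0.192). Epha7 read 4.07, 4.45 and 4.37 in GFP positive and 4.63, 6.33 and 4.72 in GFP negative cells. The Epha7 groups did not overlap. The size of its difference, −0.93 (limma adjusted p = 0.333), rested largely on GFP negative replicate 2 and was −0.38 without that array. Epha4, which binds ephrins of both types, read 8.85, 8.81 and 8.87 in GFP positive and 8.49, 8.95 and 7.38 in GFP negative cells. Its difference of 0.57 (limma adjusted p = 0.510) rested on GFP negative replicate 3 and was 0.12 without it.

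**Figure D3:**
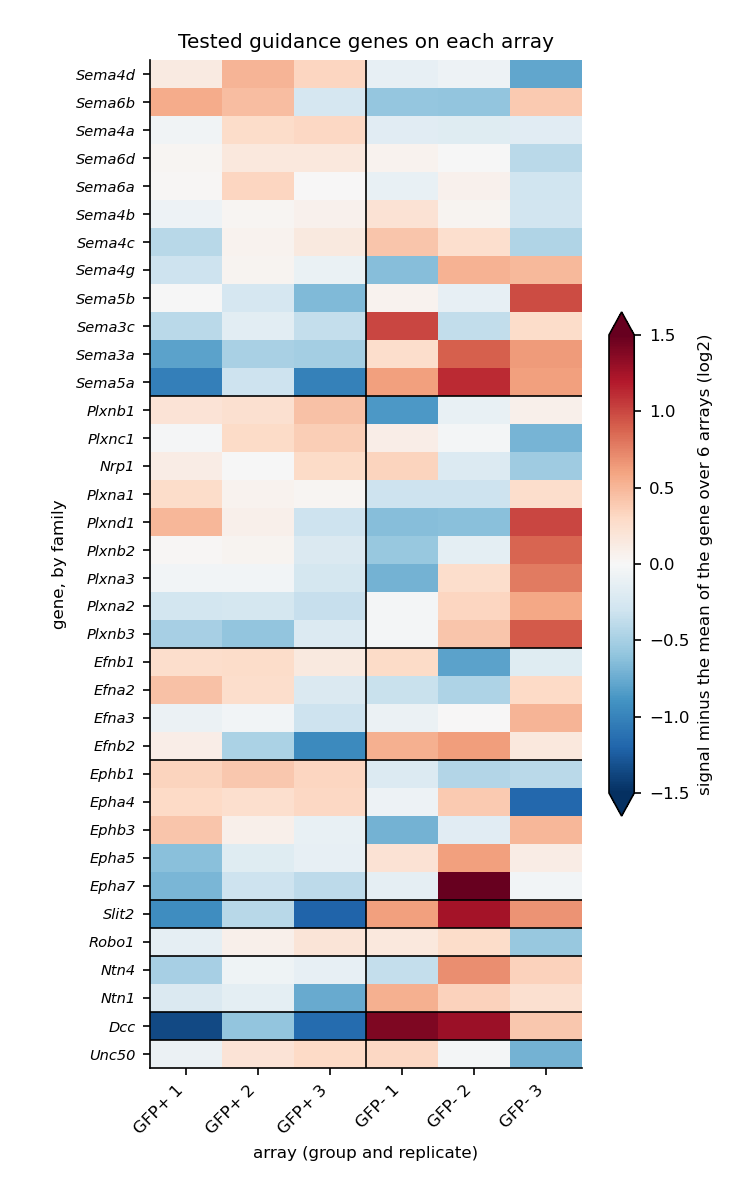
Log2 signal of each of the 36 tested genes minus its mean over the 6 arrays (colour), with arrays in columns (GFP positive left of the line, GFP negative right) and genes in rows by family; colours stop at 1.5 in either direction. Sema3a, Sema5a, Slit2 and Dcc are blue on all GFP positive and red on all GFP negative arrays. In some other rows, such as Epha4 and Plxnb2, GFP negative replicate 3 has the strongest colour.

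GFP negative replicate 3 was the highest or lowest of the 6 arrays for 18 of the 36 genes, where over all genes tested it was so for 60.3%. GFP positive replicate 2 was so for 4 of the 36 (11.1%), against 14.4% over all genes.

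Other probe sets of the same genes were compared where they were bright enough. Sema3a has 3 probe sets, and all 3 separated the groups, by −1.20, −1.25 and −1.56. In a fit of all probe sets the one at −1.56 passed (limma adjusted p = 0.0493), and the one at −1.25 was too dim to be tested. Sema5a has 2 tested probe sets, at −1.57 and −1.11, of which the second did not pass in that fit (limma adjusted p = 0.195), although its groups did not overlap; its 2 other probe sets lay near background in both groups. For Slit2 a further probe set, too dim for the test, read 2.67, 2.65 and 2.60 in GFP positive and 5.81, 5.69 and 3.66 in GFP negative cells, and the remaining one was near background. For Dcc both further probe sets were under log2 4 on every array; one read 2.44 on each GFP positive array, against 3.28, 2.74 and 3.45 on the GFP negative arrays, and the other was flat. Of the 15 genes with several tested probe sets, 11 had all of them on the same side of 0 and 4 had opposite signs. Nrp1, Epha4 and Efnb1 are among these 4, at −0.62 to 0.26, −0.22 to 0.57 and −0.32 to 0.46, so that the direction of these genes depends on the probe set read. All 4 tested probe sets of Epha5 were negative, from −1.23 to −0.27.

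**Figure D4:**
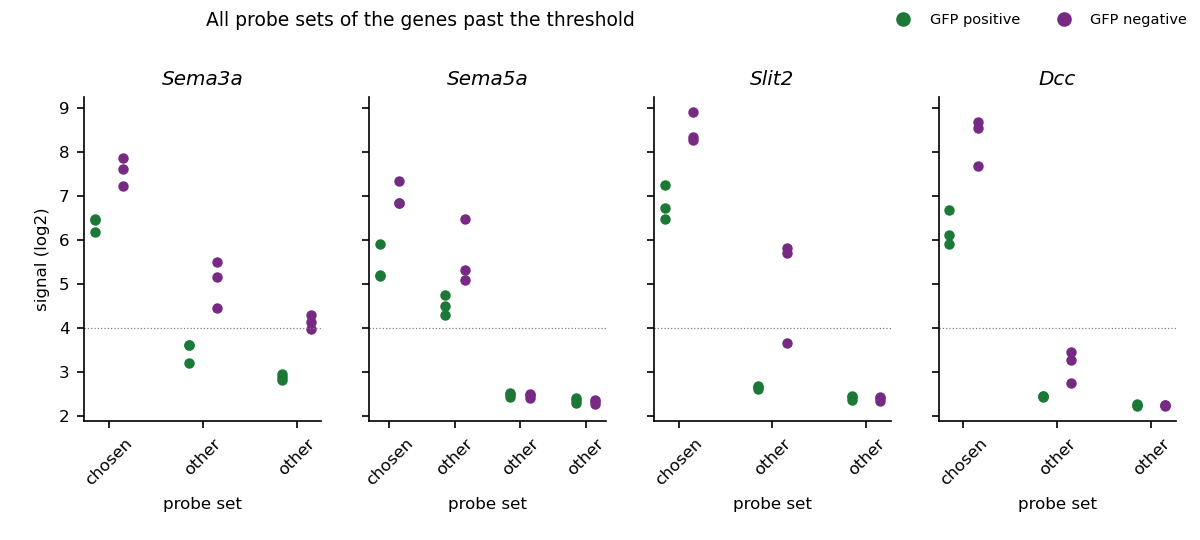
Log2 signal (y axis) of every probe set of Sema3a, Sema5a, Slit2 and Dcc, with 3 GFP positive arrays (green, left) and 3 GFP negative arrays (purple, right) each; the probe set used is marked as chosen and the dotted line is log2 4. One or more further probe sets of each gene separate the groups in the same direction, for Dcc with all values under log2 4, and the others are flat near background.

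The 4 calls depended on single arrays. Without GFP positive replicate 1, GFP positive replicate 3 or GFP negative replicate 2, limma called 0 of the 36 genes lower, with 7 lower at an unadjusted p under 0.05 in each of these fits. The share of all genes at that unadjusted cut is not given for these fits, so the 7 cannot be set against it. Over all 10531 genes limma then called 2 higher and 0 lower without GFP positive replicate 1, 1 higher and 0 lower without GFP positive replicate 3, and 70 higher and 36 lower without GFP negative replicate 2. Without GFP positive replicate 2, 3 were called, as Sema3a was lost (limma adjusted p = 0.109). Without GFP negative replicate 1 or GFP negative replicate 3 all 4 were called, and without GFP negative replicate 3 Dcc differed by −2.38 (limma adjusted p = 0.00623), Slit2 by −1.77 (0.0177), Sema5a by −1.66 (0.0187) and Sema3a by −1.18 (0.0260). Over the arrays left out in turn the differences ran from −2.38 to −1.88 for Dcc, from −1.91 to −1.49 for Slit2, from −1.81 to −1.41 for Sema5a and from −1.37 to −1.05 for Sema3a. The limma adjusted p was at most 0.101 for Dcc, 0.109 for Slit2, 0.118 for Sema5a and 0.132 for Sema3a.

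**Figure D5:**
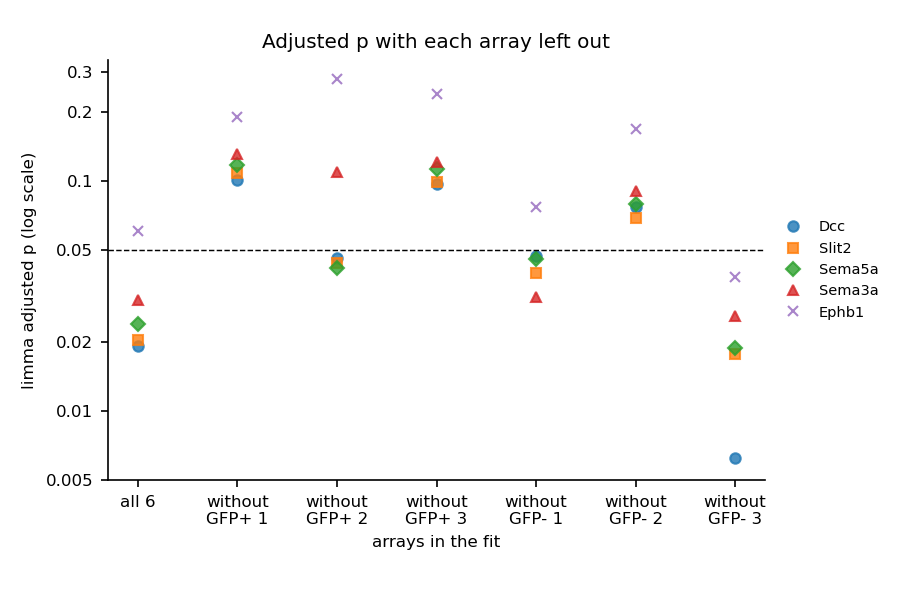
Limma adjusted p (y axis, log scale) of Dcc, Slit2, Sema5a, Sema3a and Ephb1 with all 6 arrays and with each array left out (x axis); the dashed line is 0.05. The 4 lower genes lie between 0.0692 and 0.132 where GFP negative replicate 2 or GFP positive replicate 1 or 3 is left out, and Ephb1 is under 0.05 only without GFP negative replicate 3.

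Promoter sequences are shown for Sema3a, Sema5a and Slit2, which are 3 of the 4 guidance genes past the threshold. No sequence is shown for Dcc, the gene with the largest difference. Whether the genes shown share regulation was not tested. They come from RefSeq's GRCm38.p6 assembly, 300 bases each, from 250 bases before the annotated start to 50 after it, in the direction of transcription. Capitals mark 3 motifs, each searched on both strands: the GC box GGGCGG, the TATA motif TATAAA, and TTTGAA, an element known from promoters of mitotic genes. No match of one motif overlapped a match of another motif, though neighbouring GC boxes of Sema5a share a base.
Sema3a, chr5:13396534-13396833, plus strand: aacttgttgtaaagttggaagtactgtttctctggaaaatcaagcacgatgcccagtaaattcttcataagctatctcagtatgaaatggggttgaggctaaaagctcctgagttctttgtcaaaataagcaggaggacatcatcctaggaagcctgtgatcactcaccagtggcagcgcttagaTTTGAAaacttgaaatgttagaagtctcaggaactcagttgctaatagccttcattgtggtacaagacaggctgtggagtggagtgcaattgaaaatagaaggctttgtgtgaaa
Sema5a, chr15:32244563-32244862, plus strand: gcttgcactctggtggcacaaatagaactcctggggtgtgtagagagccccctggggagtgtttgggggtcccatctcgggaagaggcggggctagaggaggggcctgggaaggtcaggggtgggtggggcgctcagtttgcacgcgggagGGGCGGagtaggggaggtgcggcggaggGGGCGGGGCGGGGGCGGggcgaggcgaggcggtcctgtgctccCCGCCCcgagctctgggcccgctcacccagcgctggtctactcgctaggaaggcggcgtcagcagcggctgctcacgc
Slit2, chr5:47982905-47983204, plus strand: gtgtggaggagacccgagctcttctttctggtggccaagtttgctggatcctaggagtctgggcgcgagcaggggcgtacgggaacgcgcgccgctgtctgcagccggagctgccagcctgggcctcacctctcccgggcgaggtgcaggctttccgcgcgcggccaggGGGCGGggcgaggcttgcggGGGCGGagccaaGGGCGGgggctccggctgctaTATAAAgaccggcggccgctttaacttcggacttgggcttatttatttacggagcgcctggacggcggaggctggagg
The 3 windows differed in composition. That of Sema3a was 41.3% G or C with 2 CpG sites, held no GC box and had 1 match to TTTGAA. That of Sema5a was 71.3% G or C with 23 CpG sites and 5 GC boxes. That of Slit2 was 68.0% G or C with 30 CpG sites, 3 GC boxes and a TATAAA match starting 28 bases before the annotated start. The table gave 76 promoters for 60 of the 71 genes, of which 72.4% held a GC box, 2.63% TATAAA and 7.89% TTTGAA. Over all 32851 promoters of the table, those of noncoding genes included, the shares were 35.7%, 13.6% and 17.9%. A match describes letters in this window only.

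The guidance genes were set beside lists of cell division and cell type genes measured on the same arrays. Of 19 tested mitosis genes 17 fell and 0 rose, or 89.5% lower, where 2.11% of all genes tested were. Their summed signal was log2 11.1 to 11.8 on the GFP positive arrays, against log2 12.9 to 13.5 on the GFP negative arrays. Of 14 tested astrocyte genes 6 rose and 0 fell, where 2.35% of all genes tested rose. The groups did not overlap for 13 of the 14 with GFP positive higher, or 92.9%, where 13.8% of all genes tested did so. At an unadjusted limma p under 0.05, 11 were higher and 0 lower, where 9.92% of all genes tested were higher. The summed signal was log2 16.2 to 16.3 in GFP positive and log2 15.4 to 15.6 in GFP negative cells. Both sums separated the groups without overlap, as did Sema3a, Sema5a, Slit2 and Dcc, and their part in the differences of the guidance genes was not tested.

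Guidance genes are also used by neurons, oligodendrocyte progenitors and vessels. Of 14 neuron genes on the array 7 were tested and 1 fell (Elavl4, by 1.59 on the log2 scale). Of these 7 genes, 5 were negative and 2 positive, with a median difference of −0.34. At an unadjusted limma p under 0.05, 2 were lower and 0 higher. The summed signal was log2 12.5 to 12.8 in GFP positive and log2 12.7 to 13.2 in GFP negative cells. Each array had 7 or 8 neuron genes at log2 4 or more, while Dcx (2.43 and 2.42) and Rbfox3 (2.56 and 2.49) lay near background in both groups. Of 13 oligodendrocyte lineage genes 5 were tested and 0 passed the limma threshold, with 2 lower at an unadjusted p under 0.05. Of these 5 genes, 4 were negative and 1 was positive. The groups did not overlap for 3 with GFP positive lower, or 60%, where 11.5% of all genes tested did so, and for 1 with GFP positive higher. The summed signal, to which the brightest genes add most, was log2 14.1 to 14.3 in GFP positive and log2 14.2 to 14.3 in GFP negative cells. Of 11 endothelial genes Flt1 alone was tested, without passing, and Pecam1, Cdh5 and Cldn5 were under log2 4 on every array. Their summed signal was log2 6.08 to 6.12 in GFP positive and log2 5.95 to 6.30 in GFP negative cells. Of 10 mural cell genes 2 were tested. Acta2 fell (−1.29), and Cspg4, which also stands on the oligodendrocyte list, differed by −1.31 without passing. For both, the groups did not overlap and the unadjusted limma p was under 0.05. The summed signal of the mural list was log2 7.29 to 7.71 in GFP positive and log2 7.94 to 9.21 in GFP negative cells. Of 12 microglia genes 2, Cd68 and Csf1r, were tested and 0 passed, with 0 at an unadjusted p under 0.05, and Aif1 and Tyrobp lay near background. Their summed signal was log2 7.61 to 7.84 in GFP positive and log2 7.40 to 7.85 in GFP negative cells.

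Genes that carry guidance signals inside the cell were read as a list. Of 55 listed effectors, such as collapsin response mediator proteins and actin modifiers, 47 were tested, 1 fell and 0 rose, or 2.13% lower beside 2.11% of all genes tested, with a median difference of 0.04. The gene that fell was Mical2, an actin-oxidising relative of the MICAL proteins that bind plexins. It read 6.48, 6.57 and 6.40 on the GFP positive arrays, against 7.15, 7.95 and 8.03 on the GFP negative arrays. The difference was −1.22 (SE 0.26, 95% interval −1.84 to −0.61, limma adjusted p = 0.0466). The call was lost without any 1 of the GFP positive replicates or GFP negative replicate 2, where the limma adjusted p reached 0.187, and also with the replicate block (0.123), with no filter (0.107) and with trend and robust settings (0.0551).

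Other cues, receptors and adhesion molecules of axon guidance gave 30 tested genes of 43 listed, with 15 positive and 15 negative and a median difference of 0.02. By limma 0 passed the threshold, and at an unadjusted p under 0.05 the list held 5 higher and 6 lower of 30 genes, where 9.92% of all genes tested were higher and 8.28% lower. The genes with the highest signal were Rtn4, a myelin-associated inhibitor of axon growth (−0.0048, limma adjusted p = 0.992), and Neo1, a relative of Dcc that binds netrins and repulsive guidance molecules (0.25, limma adjusted p = 0.641). Draxin, a repellent known to bind Dcc, came nearest to the threshold and is named after its value was seen. It averaged 7.65 ± 0.33 in GFP positive and 8.88 ± 0.42 in GFP negative cells (SD, n = 3 each; difference −1.23, limma adjusted p = 0.0531).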

How the data were processed

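The authors hybridised biotin-labelled total RNA of 3 GFP positive and 3 GFP negative samples, 1 array each, and the deposited values are log2 signals made with GCRMA, per the submitters' processing notes. GCRMA pulls dim probe sets toward a floor and assumes a like distribution on all arrays, so folds near background and shifts of all genes are not well measured. The 45101 probe sets were used as deposited. Of them 34945 named 1 gene in the platform annotation, and 34741 matched RefSeq by gene identifier. Groups come from the labels. Members and lists were chosen with earlier results of these data known. Genes with log2 4 or more on at least 3 of 6 arrays were fitted together in limma 3.58.1 (R 4.3.3, lmFit and eBayes, no covariate), and p-values were adjusted by Benjamini-Hochberg over these 10531 genes, with a threshold of 0.05. Differences are GFP positive minus GFP negative. The fit was tested on simulated data. Named genes are those past the threshold, in each family up to 2 further genes with the largest difference and the 2 with the highest signal, and a fixed set of partner genes. The label biological replicate does not say whether arrays come from separate animals or cultures, so the p-values measure the spread between these samples. Alternatives covered the filter, normalization, probe set choice, moderation, array weights, the replicate block and each array left out.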

Additional observations from a re-analysis of the deposited data

How the results depend on the processing

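Same-numbered arrays correlated by −0.25, 0.05 and −0.50 in their deviations from the group means, and differently numbered arrays by −0.38 to 0.44. The deviations within a group sum to 0 for each gene, so these correlations are not independent. They cannot decide whether same-numbered arrays were paired. With the replicate block 0 guidance genes were lower (limma, 9 at an unadjusted p under 0.05), with 19 genes higher and 8 lower in all. Without a filter, over 18193 genes, limma called 1 of 71 guidance genes higher (Ephb1) and 0 lower, and 101 lower genes in all. At an unadjusted p under 0.05, 10 of the 71 were lower. The share of all genes at that unadjusted cut is not given for the replicate block or for no filter. Without a filter Dcc, Slit2, Sema5a and Sema3a had a limma adjusted p of 0.0587 to 0.0678, and why was not tested. A common median called 1 higher (Ephb1) beside the same 4 lower, with a median difference of 0.081, where that of all genes tested was 0.073. Array weights called 1 higher (Ephb1) and 6 lower (with Efnb2 and Plxnb3), and 1051 higher and 603 lower genes in all. That fit leaned on GFP positive replicate 2, with a weight of 8.35, and gave GFP negative replicate 3 a weight of 0.15. The other arrays had weights of 0.76 to 1.22. With each array left out, guidance genes numbered 0 to 1 higher and 0 to 4 lower, and all genes 1 to 801 higher and 0 to 443 lower. Over the 15 alternatives, 25 named guidance genes gave 371 values, of which 335 kept direction and side of the threshold. The reversals were Nrp1 with the mean of its probe sets (−0.10), Sema4b (−0.060), Plxnb2 (0.24) and Robo1 (−0.089) with array weights, and with arrays left out Sema4b (−0.12 to 0.13), Plxnb2 (−0.42 to 0.30), Robo1 (−0.17 to 0.25) and Ephb3 (−0.037 to 0.57).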

Other observations

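Nrp2, a co-receptor of class 3 semaphorins such as Sema3f, was too dim for the test but not flat. Its brightest probe set read 2.66, 2.66 and 2.67 on the GFP positive arrays, against 3.52, 5.11 and 3.83 on the GFP negative arrays. All GFP positive arrays lay below all GFP negative arrays, although GFP negative replicate 2 alone passed log2 4, and the 3 other probe sets of Nrp2 lay near background in both groups. Sema3e was near background on 5 arrays and read 4.38 on GFP negative replicate 2, which also had the highest values of Epha7, Slit2, Sema5a and Sema3a.

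Of the 35 guidance genes that were not tested, 29 were under log2 4 on every array. Among them were Slit1, Slit3, Robo2, Unc5a, Unc5b, Unc5d, Plxna4 and Sema7a. The other 6, Sema3e, Nrp2, Ephb4, Ephb6, Robo4 and Unc5c, reached that level on 1 or 2 arrays. No difference is given for these genes.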
